A study of Mus musculus with 16 samples.

Results

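The genes described here encode ligands and receptors at the cell surface through which one cell restrains or promotes the immune cells that touch it. They were chosen by name as a fixed list of 10 genes, namely Cd274, Cd80, Cd86, Icosl, Tnfrsf14, Cd40, Cd47, Cd24a, Cd200 and Lgals9, among the 16612 genes that the deposited tables of the series hold. Of the 10 genes, 8 have a row in the table of leukemic cells and 7 in the table of the other marrow cells. Cd86 and Cd200 were not analysed here, and Cd80 was analysed in the leukemic cells only. All the genes analysed in a compartment passed the filter on low values, a mean normalized count over 10, so that 8 were tested in the leukemic cells and 7 in the other marrow cells.

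RNA came from the bone marrow of WT C57BL/6J mice and of IL-6 KO mice on the same background, aged 6 to 8 weeks, that had received 500000 BCR-ABL+ Arf-/- B-ALL cells marked with mCherry through the tail vein. The marrow was taken 8 days later and sorted into mCherry+ leukemic cells, called tumor, and mCherry- cells, called stroma, which gave the groups WT tumor, IL-6 KO tumor, WT stroma and IL-6 KO stroma with 4 libraries each. The same B-ALL line was given to both genotypes, so the deletion is in the host, and the leukemia of every group carries the BCR-ABL fusion without Arf. Stroma here is every live marrow cell without mCherry that was left after red cell lysis, and it is not a mesenchymal fraction. The labels name no drug treatment for any group. They do not name the mouse behind each library, so p-values measure the spread between libraries.

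PD-L1 (Cd274) binds PD-1 on T cells and dampens their activation, while CD80 and CD86 engage CD28 to costimulate T cells and CTLA-4 to restrain them, and the ICOS ligand (Icosl) binds ICOS. HVEM (Tnfrsf14) restrains lymphocytes through BTLA and CD160 and stimulates them through LIGHT, and CD40 receives T cell help through CD40 ligand. CD47 tells phagocytes, through SIRPa, not to engulf a cell, CD24 does so through the sialic acid receptors Siglec-10 in humans and Siglec-G in mice, CD200 restrains myeloid cells, and galectin-9 (Lgals9) binds TIM-3 among other glycoproteins. Leukemic B cells are known to carry several of these proteins, and IL-6 signals through JAK kinases and STAT3.

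The sorted compartments carried the markers of their labels. Summed normalized counts of 10 B lineage markers were between 136178 and 154658 in the tumor libraries and between 585 and 1706 in the stroma libraries, in which 11 erythroid markers summed to between 54332 and 231765. The tumor and stroma tables were normalized separately by the authors, so genotypes were compared only within a table. Markers of other cell types moved with genotype in tumor. The 12 mature neutrophil genes summed to between 4670 and 5243 in WT tumor and between 7186 and 17649 in IL-6 KO tumor. Of these genes, 9 were higher in IL-6 KO tumor at an adjusted p under 0.05 (limma), against 10.6% of all genes. All 12 had a mean above 0 in both genotypes, the lowest being Ly6g in WT tumor (6.94) and Il1b in IL-6 KO tumor (16.3). Neutrophil precursor markers (6 of 6 higher, sums of 289 to 443 in WT and 823 to 1841 in IL-6 KO tumor), monocyte and macrophage markers (3 of 9 higher, 1886 to 2121 and 2952 to 5944) and T and NK cell markers (1 of 6 lower, 2707 to 3133 and 2052 to 2639) also had sums without overlap. The 3 monocyte and macrophage genes called were Ly6c2, Ccr2 and Lyz2, with Lyz2 at means of 1566 in WT and 3919 in IL-6 KO tumor. Of the 9, 5 had a log2 fold change below 0, none of them called, among them Mertk (-0.86) and C1qa (-0.59). The T and NK cell gene called was Klrd1 (-1.28), and Nkg7 was the 1 gene above 0 (2.01, not called). Cd2 (means of 1392 in WT and 1337 in IL-6 KO tumor) and Lck (1160 and 805) held most of the T and NK cell sum. Of the 12 such markers listed, 6 were not analysed here. Whether the number of T and NK cells differed was not tested. The B lineage sum was apart as well, between 136178 and 141009 in WT and between 147853 and 154658 in IL-6 KO tumor. Of its 10 genes 3 were called, against 19.8% of all genes, and in mixed directions. Vpreb1 was higher (0.53 on the log2 scale) and Ebf1 (-0.30) and Cd22 (-0.54) were lower in IL-6 KO tumor. Reads were fewest in IL-6 KO stroma once 3 abundant noncoding RNAs (Rn7s1, CT010467.1 and Gm26917) were left out, with an estimated 1884110 to 6359750 reads per library against 6547980 to 12373600 in WT stroma. Judged from the spacing of repeated low values, 1 read was worth between 1.14 and 3.41 normalized counts in IL-6 KO stroma, between 0.399 and 0.895 in WT stroma and between 0.604 and 1.58 in tumor.

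Leukemic cells held a wide range of these transcripts. Per kilobase of the longest transcript, the order in WT tumor was Lgals9, Cd24a, Cd47, Tnfrsf14, Icosl, Cd274, Cd40 and Cd80, and it was the same in IL-6 KO tumor. Mean levels per kilobase in WT tumor ran from 10169 ± 505 (SD, n = 4) normalized counts for Lgals9 through 3490 ± 316 for Cd24a and 1385 ± 82.1 for Cd47 down to 32.2 ± 5.32 for Cd274 and 3.57 ± 2.19 for Cd80. The ranges over libraries of neighbours in this order overlapped only for Cd40 and Cd80. The transcripts of the phagocytosis signals Cd47 and Cd24a thus stood far above those of the ligands that T cells recognise, apart from Lgals9. As a percentile among the 11809 genes found in both tables, the median over WT tumor libraries was 98.1 for Lgals9, 95.1 for Cd24a, 86.9 for Cd47, 43.0 for Tnfrsf14, 29.7 for Icosl, 17.8 for Cd274, 7.50 for Cd40 and 4.10 for Cd80.

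In the stroma the order was different. Cd24a led, followed by Tnfrsf14, Cd47, Lgals9, Icosl, Cd274 and Cd40, in both genotypes. Mean levels per kilobase in WT stroma were 3275 ± 725 (SD, n = 4) for Cd24a, 875 ± 248 for Tnfrsf14, 423 ± 82.3 for Cd47, 104.8 ± 18.5 for Lgals9, 30.9 ± 11.1 for Icosl and 20.6 ± 4.71 for Cd274. Only Icosl and Cd274 overlapped among neighbours in WT stroma, whereas in IL-6 KO stroma the ranges of Tnfrsf14 and Cd47, of Cd47 and Lgals9, of Lgals9 and Icosl and of Icosl and Cd274 overlapped.

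Set side by side as percentiles within each library, with no test, 5 of the 7 genes had ranges that did not overlap between the 8 tumor and the 8 stroma libraries. Among all genes ranked the share was 39.0%. The gene with the widest gap was Tnfrsf14, with a percentile between 35.5 and 47.6 in tumor and between 95.0 and 98.6 in stroma. Lgals9 was the one gene of the 5 that stood higher in tumor, between 97.8 and 98.5 against 60.2 and 85.0 in stroma. Cd274 stood between 14.5 and 21.5 in tumor and between 30.1 and 48.7 in stroma, and Icosl between 26.5 and 35.0 in tumor and between 42.1 and 72.9 in stroma. Cd24a was near the top of both, between 92.6 and 95.6 in tumor and between 98.9 and 99.5 in stroma. Ranked among all genes of its own table instead, Cd274 had a mean percentile of 27.5 in WT tumor and 31.0 in IL-6 KO tumor against 45.6 and 44.4 in stroma, and Icosl 42.3 and 43.5 against 54.9 and 62.6. A percentile depends on which other genes a compartment transcribes, and in bulk RNA fewer cells of a type and less RNA per cell cannot be told apart.

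**Figure D1:**
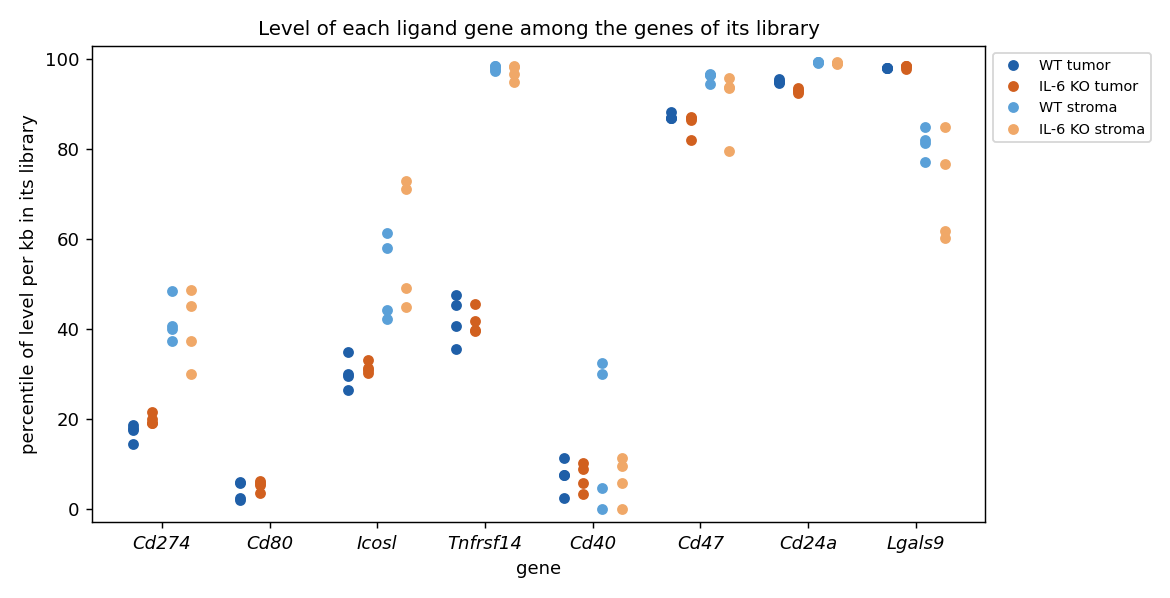
Percentile of the level per kilobase of transcript (vertical axis, 0 to 100) of each ligand gene (horizontal axis) among the 11809 genes found in both tables, 1 point per library and 4 libraries per group. Tnfrsf14 lies between 35.5 and 47.6 in tumor and between 95.0 and 98.6 in stroma, and Lgals9 between 97.8 and 98.5 in tumor and between 60.2 and 85.0 in stroma; Cd80 was analysed in tumor only.

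The comparison of IL-6 KO with WT tumor asks whether leukemic cells carry other amounts of these transcripts when the host lacks IL-6. Of the 8 genes, only Cd24a differed at an adjusted p under 0.05 (limma on log2 normalized counts), and it was lower in IL-6 KO tumor. Across all 14493 genes tested 19.8% differed, 10.6% higher and 9.16% lower, so the share of the ligand genes, 1 of 8, did not stand above this background. The median log2 fold change was -0.01 over the 8 genes and -0.01 over all genes tested, with 4 of the 8 genes above 0 and 4 below.

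Cd24a, a small glycoprotein anchored by a lipid and abundant on immature B cells, lies at chr10:43578284-43584265 (GRCm38, plus strand) and had normalized counts of 6420, 7094, 6082 and 5753 in WT tumor 1 to 4. In IL-6 KO tumor 1 to 4 they were 4584, 5386, 4970 and 4387. Every IL-6 KO tumor library lay below every WT tumor library, as the genotypes also did without overlap for 25.6% of all genes tested. In log2 terms the difference was -0.39 (SE 0.09, 95% interval -0.59 to -0.20, adjusted p = 0.0148 by limma), a decrease of 23.8%, and the exact two-sided permutation test over libraries gave p = 0.0286, which is as low as 4 against 4 can reach. With any single library left out the log2 fold change stayed between -0.45 and -0.34, with adjusted p between 0.00638 and 0.0477 by limma.

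The call on Cd24a was lost in the following alternatives. After the dependence of log2 values on GC content and transcript length was taken out of each library, the log2 fold change was -0.18 (adjusted p = 0.216 by limma), while 2230 genes in all were called. GC content and length were removed together, and their separate parts were not tested. With the summed mature neutrophil markers as a covariate it was -0.35 (adjusted p = 0.513 by limma) in a fit that called 20 genes in all. The neutrophil sum of every IL-6 KO tumor library lay above every WT value, so this fit could not tell the covariate and genotype apart. The part of other cells in the lower Cd24a was not tested.

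**Figure D2:**
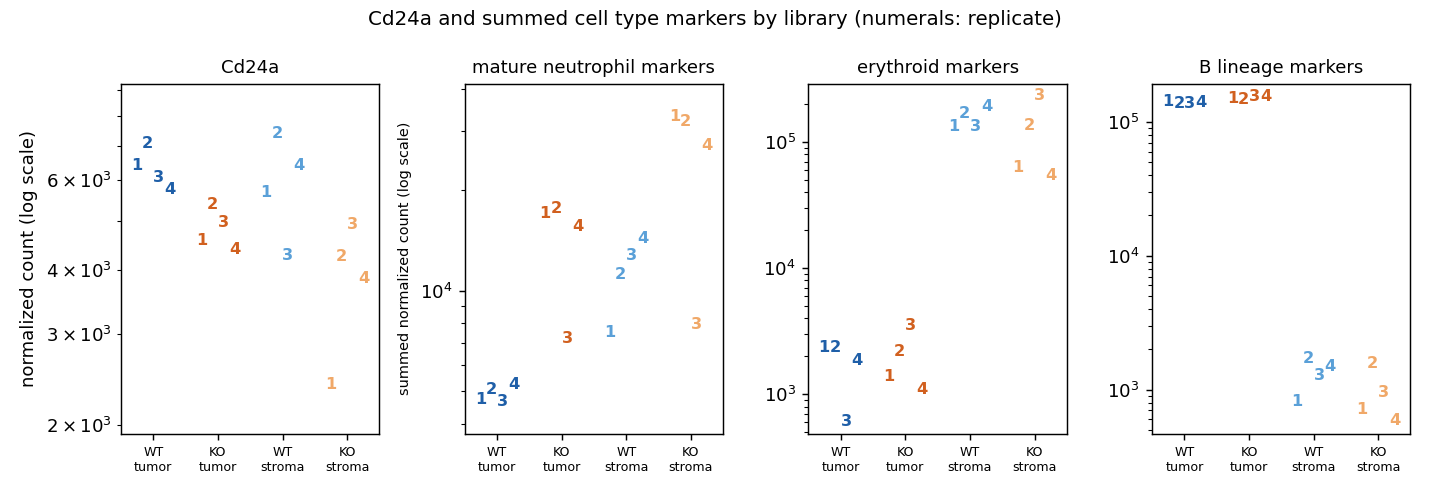
Normalized count of Cd24a and summed normalized counts of the mature neutrophil, erythroid and B lineage markers (vertical axes, log scale) by group, with the replicate number printed at each library's value; tumor and stroma were normalized separately. Cd24a lies between 5753 and 7094 in WT tumor and between 4387 and 5386 in IL-6 KO tumor, while the mature neutrophil sum lies between 4670 and 5243 and between 7186 and 17649.

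Lgals9 (chr11:78962974-78984946, minus strand) was the most abundant of the 8 genes in tumor, per kilobase as well as in normalized counts. Its normalized counts were 16279, 14959, 16559 and 16718 in WT tumor 1 to 4 and 20036, 14010, 21539 and 20450 in IL-6 KO tumor 1 to 4. Of the IL-6 KO libraries 3 lay above every WT library and IL-6 KO tumor 2 lay below all of them. IL-6 KO minus WT came to 0.22 on the log2 scale (SE 0.12, 95% interval -0.06 to 0.49, adjusted p = 0.236 by limma). Without IL-6 KO tumor 2 it was 0.36 (adjusted p = 0.00361 by limma), and with limma's array weights, which give deviant libraries less weight, 0.30 (adjusted p = 0.0215 by limma). The call on Lgals9 therefore turned on 1 library.

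Cd274, the gene of PD-L1 (chr19:29367455-29388095, plus strand), had normalized counts of 122.5, 88.5, 122.7 and 132.6 in WT tumor 1 to 4 and 119.9, 133.8, 157.5 and 130.8 in IL-6 KO tumor 1 to 4. The genotypes overlapped, and the library farthest from the others was WT tumor 2. On the log2 scale the difference was 0.22 (SE 0.17, 95% interval -0.16 to 0.61, adjusted p = 0.387 by limma), and without WT tumor 2 it was 0.10. The tested genes with a mean of at least 50 whose library-to-library pattern was most like that of Cd274 in tumor were Mlxip, Acad9 and the pseudogene Gm1821, with root mean square differences of 0.07, 0.07 and 0.08 on the log2 scale over 8 libraries, among 11238 genes. In stroma they were Nsd1, Gm37110 and Rrnad1, with 0.17, 0.18 and 0.19 among 8077 genes. The SD of Cd274 itself over 8 libraries was 0.23 in tumor and 0.46 in stroma. The closest genes were picked as such, and a shared regulation was not tested.

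The other B7 family ligands showed no call. Icosl had normalized counts of 406.5, 240.6, 299.0 and 294.0 in WT tumor and 342.5, 311.7, 307.9 and 286.2 in IL-6 KO tumor, all IL-6 KO libraries lying inside the WT range, and the log2 fold change was 0.03 (SE 0.16, adjusted p = 0.906 by limma). Cd80 was close to the limit of detection, with counts of 4.91, 5.72, 17.3 and 17.3 in WT tumor and 12.6, 8.62, 12.2 and 14.3 in IL-6 KO tumor. These counts correspond to an estimated 3.11 to 22.6 reads, and the 95% interval of the log2 fold change ran from -0.88 to 1.37.

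The TNF receptor family members overlapped between genotypes as well. Tnfrsf14 had normalized counts of 275.8, 174.4, 302.1 and 225.4 in WT tumor and 228.4, 277.4, 208.0 and 206.5 in IL-6 KO tumor, or -0.07 on the log2 scale (SE 0.19, adjusted p = 0.831 by limma). Cd40 was low and uneven, between 6.53 and 41.8 in WT tumor and between 5.25 and 28.3 in IL-6 KO tumor, with a 95% interval of the log2 fold change from -1.73 to 1.09. At an estimated 4.38 to 44.7 reads per library, the values of Cd40 are compatible with any change within that interval.

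Cd47 was the gene with the narrowest interval after Cd24a. Its normalized counts were 7912, 7109, 6970 and 7100 in WT tumor and 7692, 5676, 7673 and 7382 in IL-6 KO tumor, so that 3 of the 4 IL-6 KO libraries lay inside the WT range and 1 below it. The log2 fold change was -0.04 (SE 0.10, 95% interval -0.27 to 0.18, adjusted p = 0.801 by limma). Its sign changed without IL-6 KO tumor 2, where the log2 fold change was 0.06.

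**Figure D3:**
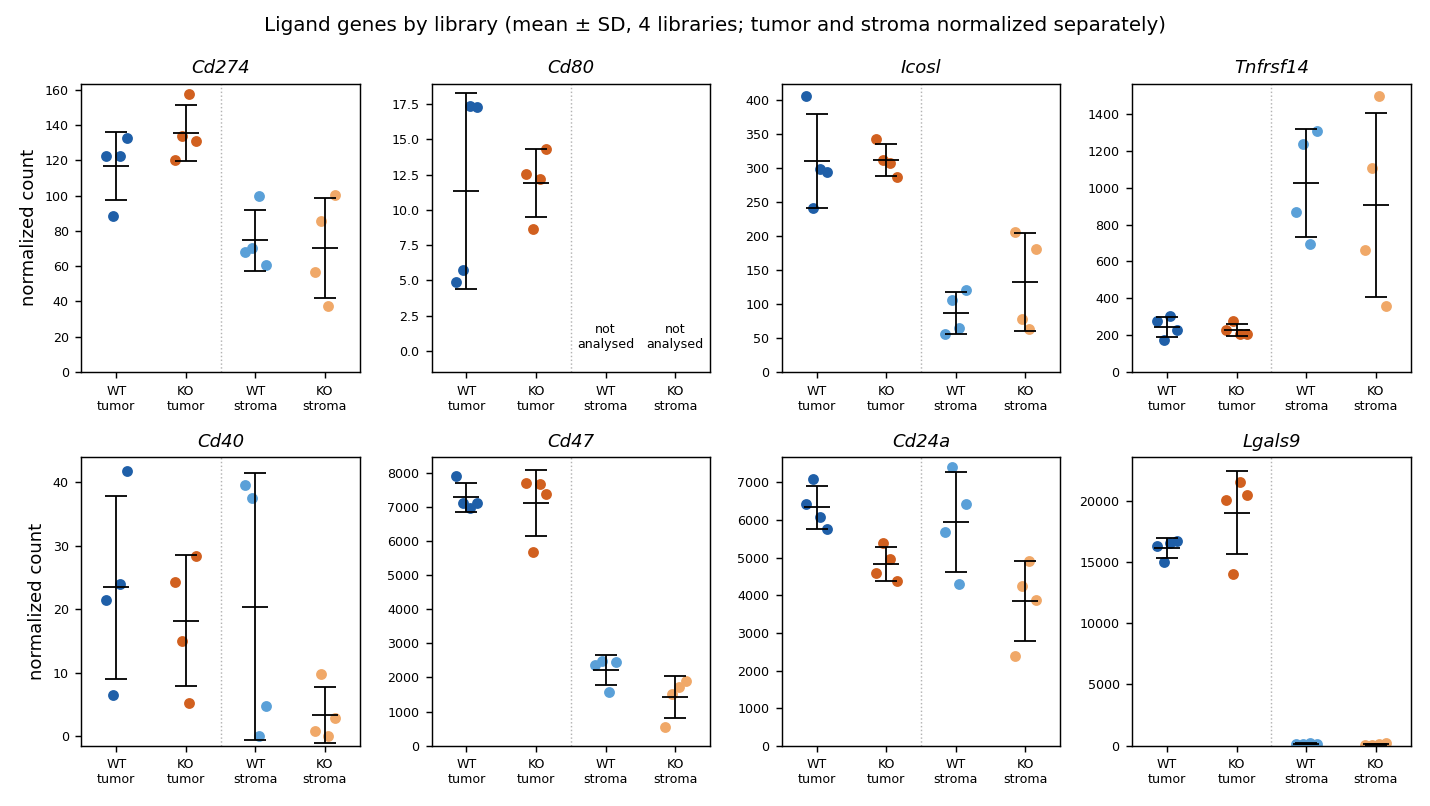
Normalized count of each ligand gene (vertical axes, linear) in the 4 groups, 1 point per library with the mean ± SD of 4 libraries in black; tumor and stroma were normalized separately and are not comparable in height. Cd24a is the gene whose IL-6 KO tumor libraries, 4387 to 5386, all lie below the WT tumor libraries, 5753 to 7094, and the IL-6 KO stroma libraries spread more widely than the WT stroma libraries for Cd274, Icosl, Tnfrsf14, Cd47 and Lgals9.

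In stroma, where the comparison asks the same of the cells around the leukemia, none of the 7 genes differed at an adjusted p under 0.05 (limma) or at an unadjusted p under 0.05. Across all 12202 genes tested 0.00820% differed at the adjusted threshold and 9.15% at the unadjusted one. The log2 fold change was below 0 for 6 of the 7 genes, with a median of -0.60 against -0.01 over all genes tested. Libraries of 1 genotype differed far more in stroma than in tumor, with a median residual SD of 0.86 on the log2 scale against 0.21. In simulated stroma libraries of this spread the test recovered 0 of 100 genes with a log2 change of 1 and 5 of 100 with a log2 change of 2, against 66 and 84 of 100 in tumor, so a change of such size in stroma could have been missed.

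Cd24a was again lower in the mean, with normalized counts of 5673, 7416, 4288 and 6416 in WT stroma 1 to 4 and 2398, 4251, 4911 and 3863 in IL-6 KO stroma 1 to 4. Only WT stroma 3 fell within the IL-6 KO range. This gave -0.65 on the log2 scale (SE 0.31, 95% interval -1.33 to 0.04, adjusted p = 0.558 by limma). None of the 7 genes separated the genotypes without overlap, which 5.79% of all stroma genes did.

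Cd47 had normalized counts of 2371, 2478, 1574 and 2453 in WT stroma, against 537, 1514, 1734 and 1912 in IL-6 KO stroma. IL-6 KO stroma 1 was far below the rest. The log2 fold change of -0.77 (SE 0.40, 95% interval -1.63 to 0.09, adjusted p = 0.579 by limma) was -0.35 without that library. Lgals9 had counts of 166.3, 131.9, 203.6 and 163.1 in WT stroma, against 72.3, 67.2, 140.0 and 201.0 in IL-6 KO stroma, or -0.60 on the log2 scale (SE 0.45, adjusted p = 0.709 by limma), with IL-6 KO stroma 1 and 2 below every WT library.

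The erythroid sum differed between these libraries as well. It was 62393 in IL-6 KO stroma 1 and 54332 in IL-6 KO stroma 4, against 132753 to 191238 in the WT libraries, 135760 in IL-6 KO stroma 2 and 231765 in IL-6 KO stroma 3. Of these libraries with low sums, IL-6 KO stroma 1 had the lowest Cd47 count of its group, 537, and IL-6 KO stroma 4 the highest, 1912. None of the 11 erythroid genes tested passed the adjusted threshold in stroma, and 10 had a log2 fold change below 0. With the erythroid sum as a covariate the log2 fold change of Cd24a was -0.42 and that of Cd47 -0.55, and without IL-6 KO stroma 1 and 4 they were -0.35 and -0.43. The part of erythroid content in either gene was not tested further. IL-6 KO stroma 1 was also the shallowest library, with an estimated 1884110 reads outside the 3 noncoding RNAs.

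Cd274 had normalized counts of 68.0, 70.1, 99.5 and 60.9 in WT stroma, against 56.6, 85.8, 37.6 and 100.6 in IL-6 KO stroma. The WT range lay within the IL-6 KO range, and the log2 fold change was -0.16 (SE 0.49, 95% interval -1.23 to 0.91, adjusted p = 0.951 by limma). Icosl was the 1 gene above 0, with counts of 55.9, 105.8, 65.2 and 120.6 in WT stroma, against 205.8, 77.9, 63.1 and 181.2 in IL-6 KO stroma, a difference of 0.49 on the log2 scale (SE 0.52, adjusted p = 0.801 by limma). Its high values were those of IL-6 KO stroma 1 and 4, and without these libraries the log2 fold change was -0.23.

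Tnfrsf14 ran from 697 to 1304 in WT stroma and from 358 to 1498 in IL-6 KO stroma. The log2 fold change was -0.33 (SE 0.43, adjusted p = 0.848 by limma). Tnfrsf14 was lowest in IL-6 KO stroma 4 and highest in IL-6 KO stroma 3, as the erythroid sum was (54332 and 231765). Among WT libraries both were highest in WT stroma 4, but Tnfrsf14 was lowest in WT stroma 3 and the sum in WT stroma 1. With the erythroid sum as a covariate the log2 fold change of Tnfrsf14 was 0.22. The part of erythroid content in Tnfrsf14 was not tested further. Cd40 was listed at 39.5, 37.5, 0 and 4.76 in WT stroma and at 0.861, 9.74, 0 and 2.81 in IL-6 KO stroma. Both Cd40 values at 0 were in libraries numbered 3, and the 95% interval of its log2 fold change spanned -5.01 to 1.57.

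**Figure D4:**
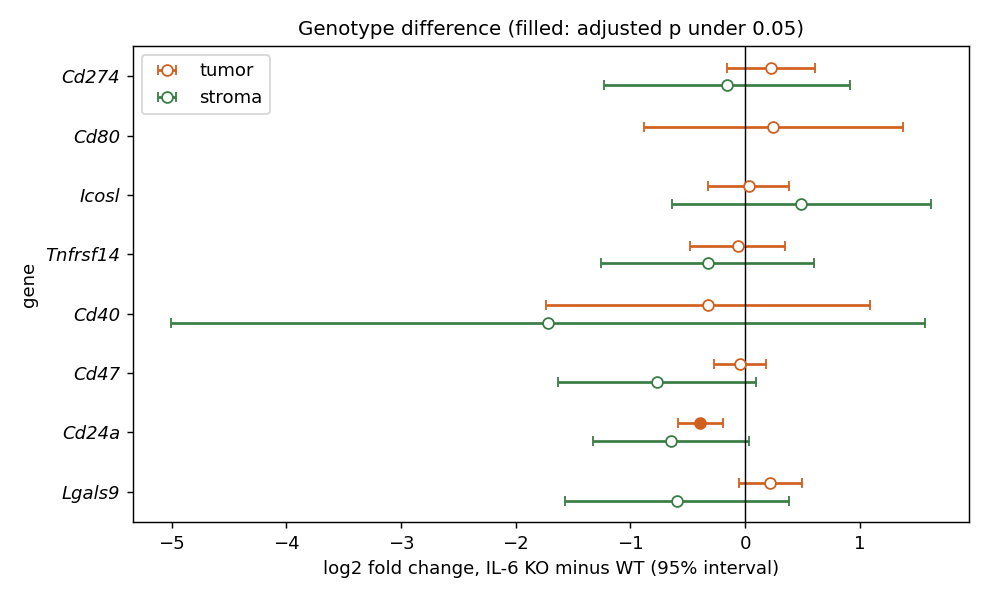
Log2 fold change of IL-6 KO over WT (horizontal axis, limma on log2(normalized count + 1), bars are 95% intervals) for each ligand gene (vertical axis) in tumor and stroma, filled where the adjusted p was under 0.05. Cd24a in tumor, at -0.39, is the only filled point, and the stroma intervals are wider than the tumor intervals for the 7 genes tested in both.

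Whether the genotype difference itself was unlike between stroma and tumor was tested as an interaction over the 16 libraries, with 1 variance per compartment. None of the 7 genes differed at an adjusted p under 0.05 (limma) or at an unadjusted p under 0.05, where 0.00919% of the 10887 genes tested did so at the adjusted threshold. For Cd24a the difference, stroma minus tumor, was -0.25 on the log2 scale (95% interval -0.99 to 0.49). The differences farthest from 0 among genes with narrow intervals were those of Lgals9 (-0.82, 95% interval -1.87 to 0.24) and Cd47 (-0.73, 95% interval -1.67 to 0.22). For Cd274 it was -0.38 (95% interval -1.73 to 0.96). In simulated data this test recovered 30 of 100 genes with a log2 difference of 2 and made 15 false calls among 10887 genes, more than its threshold allows.

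Other ligands of the same families were listed from general knowledge. In tumor, against 19.8% of all genes, 1 of 2 further B7-like ligands tested was called, Vsir, the gene of the T cell inhibitor VISTA, which myeloid cells also carry. Its log2 fold change was 1.05 (SE 0.29, adjusted p = 0.0334 by limma), from 246 ± 92.8 to 492 ± 119 (SD, n = 4) normalized counts. Btnl2, a butyrophilin-like inhibitor, narrowly missed the threshold at 0.59 (adjusted p = 0.0502 by limma). Of 8 nectin, galectin and SLAM ligands tested, 3 were called, of which Lgals1 and Lgals3 rose and Slamf7 fell.

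Lgals1, which encodes galectin-1, rose from 9128 ± 489 to 12301 ± 213 (SD, n = 4), or 0.43 on the log2 scale (SE 0.06, adjusted p = 0.00210 by limma). Lgals3, which encodes galectin-3 and is abundant in myeloid cells, rose from 35.7 ± 13.4 to 176 ± 104 (SD, n = 4), or 2.11 on the log2 scale (SE 0.46, adjusted p = 0.0140 by limma). Slamf7, a receptor that binds itself on lymphocytes and macrophages, fell from 459 ± 99.5 to 200 ± 64.4 (SD, n = 4), or -1.22 on the log2 scale (SE 0.24, adjusted p = 0.00949 by limma). For Cd48, the SLAM family ligand of CD244, the log2 fold change was -0.17 (adjusted p = 0.187 by limma). The only TNF superfamily ligand tested, Tnfsf9, which encodes the 4-1BB ligand, had 0.22 (adjusted p = 0.493 by limma). Others of this family fell below the filter on low values and were not tested. Of these, Tnfsf13 had normalized counts of 0 in WT tumor and between 13.9 and 21.9 in IL-6 KO tumor. Means in WT and IL-6 KO tumor were 9.51 and 4.18 for Tnfsf8 and 6.27 and 9.10 for Tnfsf13b. With the neutrophil marker sum as a covariate, in the fit that called 20 genes in all, none of the other ligands named here and tested was called. Lgals3 was then at -0.20, Vsir at 0.08, Lgals1 at 0.38 and Slamf7 at -1.70 on the log2 scale. This fit could not tell the covariate and genotype apart, so these values assign a change to neither. The part of other cells in these genes was not tested. The call on Vsir was also lost without WT tumor 3, IL-6 KO tumor 1, 2 or 4, one at a time, at adjusted p between 0.0653 and 0.0823 by limma, and without the variance trend.

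Receptors that bind these ligands were also read in the sorted leukemic cells, and none of 10 receptors of the ligands and none of 9 other checkpoint receptors was called (limma, adjusted p under 0.05), with 1 of each at an unadjusted p under 0.05. Over all genes tested in tumor 19.8% were called and 35.1% had an unadjusted p under 0.05. Sirpa, the receptor of CD47, and Siglecg, the receptor of CD24 on mouse B cells, were well detected, with 2066 ± 400 and 1313 ± 64.7 (SD, n = 4) normalized counts in WT tumor and log2 fold changes of 0.03 and -0.05. Pdcd1, the gene of PD-1, was at 68.3 ± 13.5 in WT tumor and at 62.2 ± 13.2 (SD, n = 4) with IL-6 deleted. On the log2 scale Cd160 differed by 0.20, Btla by -0.52 (adjusted p = 0.202 by limma), Icos by -0.34, Ctla4 by 0.48 and Cd28 by 0.01. The receptor with the smallest p among those of the ligands was Cd44, at 0.31 (adjusted p = 0.0685 by limma), which was called without IL-6 KO tumor 2 (0.41, adjusted p = 0.00512 by limma), with array weights and with the GC and length trend removed, and among the others Tnfrsf4, the gene of OX40, at -1.22 (adjusted p = 0.0908 by limma).

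Genes known to act on the amount or processing of these ligands were the longest list. Of 29 tested in tumor, 10 were called, 6 higher and 4 lower, with a median log2 fold change of 0.07 against -0.01 over all genes tested, of which 19.8% were called. Among those with the smallest p were Csnk1a1, the alpha form of casein kinase 1 (-0.54, adjusted p = 0.00129 by limma), the ubiquitin ligase Cop1 (-0.57, adjusted p = 0.00136 by limma) and Spop, an adaptor of a ubiquitin ligase that targets PD-L1 (0.30, adjusted p = 0.00963 by limma). After the GC and length trend was removed, Cop1 (-0.13, adjusted p = 0.378 by limma) and Irf2 (-0.32, adjusted p = 0.0550 by limma) were not called. With the neutrophil covariate none of Csnk1a1, Cop1, Spop, Irf2 and Irf8 was called, at log2 fold changes of -0.59, -0.47, 0.32, -0.12 and 0.37. That fit could not tell the covariate and genotype apart. Cmtm6, which keeps PD-L1 at the cell surface, differed by 0.13 on the log2 scale (adjusted p = 0.187 by limma), and Qpctl, whose enzyme modifies CD47 so that SIRPa can bind it, 0.26 (adjusted p = 0.127 by limma).

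In stroma none of the 51 genes tested from these lists was called at an adjusted p under 0.05 (limma), and 3 had an unadjusted p under 0.05, as 9.15% of all stroma genes did. These were Btn1a1, a butyrophilin, at -3.41 (adjusted p = 0.476 by limma), Cmtm6 at 1.46 (adjusted p = 0.537 by limma) and Hip1r, which directs PD-L1 to lysosomes, at 0.80 (adjusted p = 0.538 by limma). Btn1a1 was low, between 9.60 and 60.5 normalized counts in WT stroma and between 0 and 27.3 (mean 6.82) in IL-6 KO stroma. The size of its log2 fold change therefore rests in part on values at 0. Sirpa, which neutrophils and monocytes carry, had normalized counts of 402 ± 218 (SD, n = 4) in WT stroma and 811 ± 472 with IL-6 deleted, or 0.96 on the log2 scale (adjusted p = 0.558 by limma). Tnfsf14, which encodes LIGHT, and Cd200r1, the receptor of CD200, were low, with means of 11.3 (Tnfsf14) and 13.8 (Cd200r1) in WT stroma, against 20.5 and 20.9 with IL-6 deleted. The log2 fold change of Siglecg was -0.19 (adjusted p = 0.951 by limma).

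Since Irf2 and Irf8, which act at interferon response elements, were among the called genes of this list (-0.42 and 0.38), the 250 bases before the RefSeq start of each ligand gene (GRCm38.p6) were searched for such letters. RefSeq promoter rows were found for 7 of the 10 genes, namely Cd274, Cd80, Icosl, Tnfrsf14, Cd47, Cd200 and Lgals9. The searched motifs were the interferon-stimulated response element (GAAA, any 2 bases, GAAA), the STAT site TTCNNNGAA and the kappaB site, each on both strands. The response element was found in the windows of Lgals9 and Tnfrsf14, and in 2.98% of 32851 promoter windows of the same length. The STAT site was found in none of the 7 genes and in 7.02% of all windows, and the kappaB site in none and in 3.90%. Shown here, 5' to 3' on the strand of the gene, are the Lgals9 window outside annotated UTRs (chr11:78984947-78985174, minus strand), the 30 bases around the match of Tnfrsf14, which lies in the UTR of a longer annotated transcript (chr4:154928122-154928151, minus strand), and for comparison the Cd274 window outside UTRs (chr19:29367309-29367437, plus strand), which has no match. Capitals mark the response element.
Lgals9: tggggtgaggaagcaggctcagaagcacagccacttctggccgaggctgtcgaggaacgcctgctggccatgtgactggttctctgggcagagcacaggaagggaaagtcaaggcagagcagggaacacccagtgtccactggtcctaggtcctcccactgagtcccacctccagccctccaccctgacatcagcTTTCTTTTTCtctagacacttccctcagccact
Tnfrsf14: ctattttttcTTTCATTTTCacttttcctt
Cd274: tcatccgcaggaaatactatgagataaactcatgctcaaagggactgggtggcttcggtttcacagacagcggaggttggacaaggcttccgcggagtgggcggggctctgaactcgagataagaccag

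The match ends 46 bases before the start of Lgals9 and 55 bases before that of Tnfrsf14. The genes with a match had log2 fold changes of 0.22 and -0.07 in tumor, both not called, and Cd24a, the called gene, has no row among these promoters. A match is a description of letters and shows no binding.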

How the data were processed

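RNA of 16 libraries, 4 per genotype and compartment, was prepared with ribosomal RNA depletion and read as 75-base reads. The authors aligned reads to mm10, quantified transcripts with salmon 1.3.0 (corrected for GC content and sequence bias) and normalized the estimated counts with DESeq2 1.28.1, for tumor and stroma apart. The deposited values are normalized counts, a scaled signal and not whole reads. In each library 96.9% to 100% of the repeated low values were whole multiples of 1 step (tolerance 0.001), but only 2.85% to 12.9% of all low values, so whole reads were not recovered and no count test was run. The authors' deposited comparison of the genotypes (means, fold changes, statistics and p-values) was not used.

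Groups came from the labels. Genes with a mean over 10 were tested as log2(normalized count + 1), which understates changes of low genes, with limma 3.58.1 in R 4.3.3 (variance trend, two-sided, Benjamini-Hochberg over all genes of the fit). The ligand genes and all lists were chosen with earlier results of these data known. From each other list, up to 4 tested genes with the smallest p were named per compartment, with the direct receptors and modifiers of the ligands wherever tested, and Irf2 and Irf8 after their values were seen. A gene that this rule would name is not reported here. Lengths and positions came from GENCODE M21 (GRCm38). Cd274 has an antisense gene of which 286 bases match it, in neither table, and no other ligand gene had a near-identical copy (BLAST 2.17.0, 97% identity over 150 bases). Levels were divided by the longest transcript's length and ranked within each library. The tests were tried on simulated data. The alternatives were pseudocounts of 0.5 and 5, other filters, quantile normalization, median centring, array weights, no variance trend, the replicate block, each library left out, other lengths and other genes ranked. Removal of GC and length trends (loess, span 0.3), marker covariates and leaving out IL-6 KO stroma 1 and 4 were added after the data were seen. Python 3.11.15, pandas 2.3.3 and matplotlib 3.10.9 were used. The arrangement of libraries into batches is not given in the sources used here.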

Additional observations from a re-analysis of the deposited data

Results flagged for a closer look

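In 3 of the 30 sets of 4 libraries (8 genes in 2 tumor groups and 7 genes in 2 stroma groups), 1 library lay far from the other 3 by Dixon's test, where chance flags about 1 in 20. All of these were sets of Cd47. WT tumor 1 had a normalized count of 7912 against 6970 to 7109 in the other libraries, IL-6 KO tumor 2 had 5676 against 7382 to 7692, and WT stroma 3 had 1574 against 2371 to 2478. The part of depth or cell makeup in these values was not tested.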

How the results depend on the processing

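Cd24a was the only ligand gene called in tumor under each alternative except these. With array weights 2 were called (Cd24a and Lgals9), without IL-6 KO tumor 2 also 2, and 0 with the GC and length trend removed or with the neutrophil markers as covariate. Leaving out each tumor library gave 1 to 2 calls. In stroma and in the interaction 0 were called under all alternatives. The cause of these shifts was not tested.

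Among the ligand genes, direction reversed only for those not called. In tumor these were Tnfrsf14 with quantile normalization (0.0221), Icosl (-0.0021) and Cd47 (0.0346) with array weights, Icosl (-0.0355) and Cd47 (0.21) with the GC and length trend removed, and Cd47 with the neutrophil covariate (0.19). In stroma they were Cd274 with array weights (0.0456) and with the GC and length trend removed (0.0019), Icosl (-0.11) and Tnfrsf14 (0.0851) with the neutrophil covariate, Tnfrsf14 with the erythroid covariate (0.22), and Icosl (-0.23) and Tnfrsf14 (0.37) without IL-6 KO stroma 1 and 4. Leaving out single libraries gave ranges across 0 for Cd40 (-0.81 to 0.15), Cd47 (-0.0844 to 0.0618), Cd80 (-0.0416 to 0.50), Icosl (-0.0804 to 0.17) and Tnfrsf14 (-0.22 to 0.0450) in tumor, for Cd274 (-0.36 to 0.10) and Tnfrsf14 (-0.64 to 0.0526) in stroma, and for Tnfrsf14 (-0.57 to 0.12) in the interaction.

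Of the other genes named in tumor, these reversed, of which only Lgals3 had been called. They were Pdcd1 with quantile normalization (0.10), Sirpa (-0.0226) and Cd28 (-0.0280) with array weights, Cd48 (0.0869) and Sirpa (-0.10) with the GC and length trend removed, and Lgals3 (-0.20), Tnfsf9 (-0.24), Sirpa (-0.24), Ctla4 (-0.0436) and Cd28 (-1.11) with the neutrophil covariate. In stroma Tnfsf14 (-1.36), Cd200r1 (-1.17) and Siglecg (0.17) reversed with the neutrophil covariate and Tnfsf14 (-0.83) with the erythroid covariate. Single libraries left out gave ranges across 0 for Cd28 (-0.16 to 0.23), Ctla4 (-0.17 to 0.65), Sirpa (-0.0924 to 0.16) in tumor and Cd200r1 (-0.23 to 1.63), Siglecg (-0.67 to 0.34), Tnfsf14 (-0.0988 to 1.72) in stroma. Btnl2 was called with a pseudocount of 0.5, quantile normalization, median centring or no variance trend.

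The labels do not say whether the numbers pair the libraries. Deviations of same-numbered WT and IL-6 KO libraries correlated between -0.02 and -0.00028 in tumor and between -0.03 and 0.13 in stroma. Those of same-numbered tumor and stroma libraries correlated between -0.06 and 0.11 in WT and between -0.02 and 0.07 in IL-6 KO mice. Correlations near 0 cannot show that tumor and stroma libraries came from different mice. The main interaction fit treated the 16 libraries as independent. The replicate block changed no call on a ligand gene (Cd24a in tumor -0.39, limma adjusted p = 0.0149, with 1 ligand gene called in tumor, 0 in stroma and 0 in the interaction) and called 2230 genes in tumor against 2870. Percentiles of level moved by more than the spread between libraries in 26 of 60 cases, with means of Cd274 in tumor between 15.6 and 31.0. Depth limits Cd80 and Cd40 most.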
